A study of Saccharomyces cerevisiae with 72 samples.

Results

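The cytoplasmic ribosomal protein genes of budding yeast are taken here as the 132 genes named RPL (large subunit, 76 genes) or RPS (small subunit, 56 genes) and a digit. Ribosomal stalk protein genes, whose names start with RPP, are left out by this choice and are given separately below. They were picked by name from 2 tables of TPM values (a transcript level corrected for gene length and scaled so that the values of every library add up to the same total). The tables list 6857 and 6865 genes, of which 6255 and 6230 had a mean of at least 1 TPM and were tested. All 132 ribosomal protein genes passed that level in both tables.

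RNA was sequenced from 72 samples of 8 strains in the BY4741 background, with 3 libraries in each of the 24 strain-by-time groups. Samples were taken before (0 min) and 20 and 60 min after 1 µM estradiol. The labels do not say whether same-numbered samples of a strain come from 1 culture, and the main fit does not pair them. Every strain is a haploid MATa strain that makes Z3EV, an estradiol-activated transcription factor, from the ACT1 promoter at HAP1 (HAP1+::NatMX::pACT1-Z3EV-ENO2term), and carries ura3∆0, his3∆1, lyp∆0 and can1∆::STE2pr-SpHIS5. In the Z3EVp_ strains the Z3EV-responsive promoter (URA3::Z4pr) drives a 3V5-tagged allele of YOX1, yox1_9A, YHP1 or yhp1_13A. In the matching ctrl_ strains that promoter sits at the non-functional HO locus, and the tagged allele keeps its own promoter. Yox1 and Yhp1 are homeodomain repressors of cell cycle genes, and the 9A and 13A alleles lack sites phosphorylated by the cyclin-dependent kinase Cdk1. The 4 YOX1-type strains are in 1 table and the 4 YHP1-type strains in the other, with 36 libraries each. All strains received estradiol after the 0 min samples, and none was followed without it. The effects of estradiol, of activated Z3EV, of HO induction, of time and of handling therefore cannot be told apart in the ctrl_ strains.

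The induced genes matched the labels. Mean YOX1 level rose from 30.6 TPM at 0 min to 1182 TPM at 20 min in Z3EVp_YOX1, and YHP1 from 22.1 to 851 TPM in Z3EVp_YHP1. With the phosphosite alleles YOX1 rose from 21.3 to 604 TPM (SD 213) in Z3EVp_yox1_9A, and YHP1 from 21.2 to 846 TPM in Z3EVp_yhp1_13A. HO, which the Z3EV-responsive promoter drives in the ctrl_ strains, rose there as well. From 0 to 20 min it went from 5.51 to 406 TPM in ctrl_YOX1 and from 5.32 to 315 TPM in ctrl_YHP1. The 7 genes specific to MATa cells summed to between 768 and 10738 TPM per library, and the 4 genes specific to MATalpha cells to between 22.9 and 39.5 TPM. In Z3EVp_YOX1 all 7 had lower means at 20 min than at 0 min, with MFA2 at 122 against 5223 TPM. In ctrl_YOX1 MFA2 was at 4618 against 5603 TPM. The sums after induction are therefore not a measure of cell type alone. In bulk RNA, fewer cells of a kind and less RNA per cell cannot be told apart. TPM holds no sequencing depth, so the depth behind each value is unknown.

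Ribosomal proteins join the ribosomal RNAs to form the ribosome, and in growing yeast their mRNAs are among the most abundant in the cell. Their genes are transcribed together under the DNA-binding protein Rap1 with Fhl1, Ifh1 and Sfp1, and this regulon is known to be turned down quickly when growth conditions worsen. Because the yeast lineage passed through a whole-genome duplication, many ribosomal proteins are encoded by 2 gene copies, named A and B. Ribosomal protein genes are also the main intron-containing class of genes in this organism, and several of the proteins control splicing or decay of their own transcripts.

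The members shared sequence features that the choice by name did not use. A coding intron was annotated in 88 of the 132 genes (66.67%), against 187 of 5572 other protein-coding genes tested in both tables (3.36%). A small nucleolar RNA gene was annotated within an intron of 3 of them, RPL7A, RPL7B and RPS22B.

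Paralog copies differ by few bases, which sets how well short reads separate them. The coding sequences of the 57 A and B pairs were 78.86% (RPL22) to 99.39% (RPL1) identical, with a median of 93.23%. In 40 pairs no stretch of 100 bases was identical between the copies, and in 6 pairs, RPL1, RPL11 and RPL35 among them, at least 50% of such stretches were. Reads were counted only where they mapped to a single place, so the values of those 6 pairs rest on fewer distinguishing bases and are less certain per copy. The RPL41 copies, with 78 coding bases each, are too short for such a stretch. They differ at 1 coding base (98.72% identical), so their values are also less certain per copy. The following coding stretches, from the RefSeq sequence of build R64 and read 5′ to 3′ on the strand of the gene, with differing bases in capitals, show the RPL9, RPS9 and RPL22 pairs, which recur in the results, and 1 identical stretch. RPL9A (chrVII:227754-227813, minus strand) and RPL9B (chrXIV:500197-500256, plus strand) differ at 10 of these 60 bases, RPS9A (chrXVI:405966-406025, plus strand) and RPS9B (chrII:605436-605495, plus strand) at 7, and RPL22A (chrXII:263864-263923, plus strand) and RPL22B (chrVI:64271-64330, minus strand) at 14. The stretch of RPL1A (chrXVI:136384-136443) is identical in RPL1B (chrVII:255235-255294).
RPL9A: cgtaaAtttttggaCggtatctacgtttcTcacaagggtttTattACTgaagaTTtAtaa
RPL9B: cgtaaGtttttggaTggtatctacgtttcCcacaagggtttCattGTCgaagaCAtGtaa
RPS9A: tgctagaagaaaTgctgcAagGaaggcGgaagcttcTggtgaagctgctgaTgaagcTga
RPS9B: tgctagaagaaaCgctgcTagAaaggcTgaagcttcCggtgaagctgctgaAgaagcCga
RPL22A: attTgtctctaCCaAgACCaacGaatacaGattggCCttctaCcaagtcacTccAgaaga
RPL22B: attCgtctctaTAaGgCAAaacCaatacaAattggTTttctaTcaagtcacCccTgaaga
RPL1A and RPL1B: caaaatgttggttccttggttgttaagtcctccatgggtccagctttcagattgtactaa

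The summed share of ribosomal protein mRNAs in all TPM was lower at 20 min than at 0 min in every strain. Over the 24 libraries at 0 min the share ran from 32.3% to 36.7% with a median of 33.6%. At 20 min it ran from 27.2% to 29.8% with a median of 28.4%, and at 60 min from 29.6% to 32.9% with a median of 31.3%. The 0 and 20 min libraries did not overlap, and the 60 min libraries lay between them, overlapping slightly with both. In ctrl_YOX1 the share was 32.9% ± 0.575 (SD, n = 3) at 0 min, 27.8% ± 0.251 at 20 min and 30.1% ± 0.592 at 60 min. In ctrl_YHP1 it was 35.3% ± 1.21, 28.1% ± 0.825 and 31.0% ± 0.426. The Z3EVp_ strains followed the same order, with 33.1% ± 0.508, 28.6% ± 1.28 and 31.6% ± 1.23 in Z3EVp_YOX1. TPM are shares of a fixed total, so a lower share of these genes is also a higher share of the others, and the amount of RNA per cell was not measured.

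**Figure D1:**
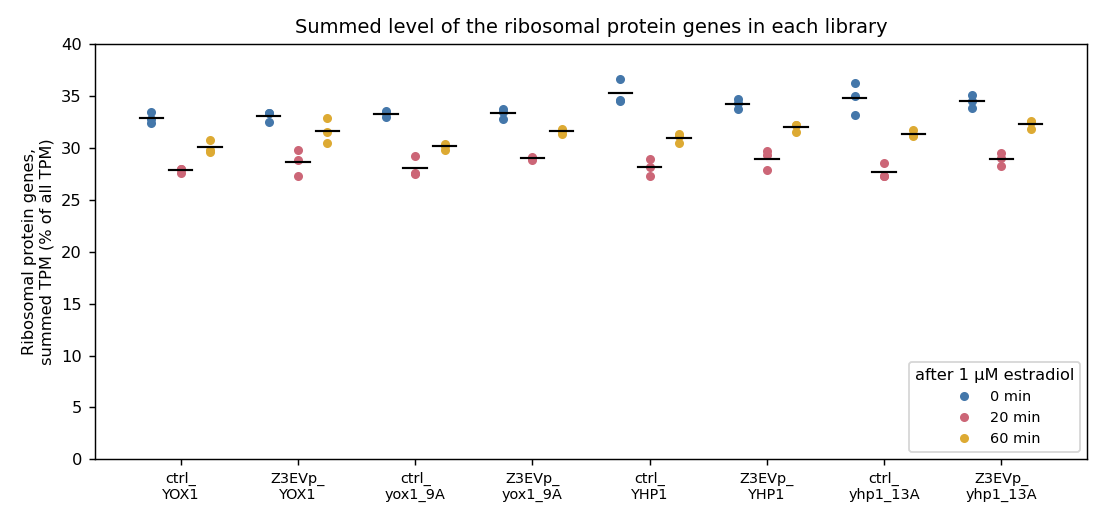
Summed level of the 132 ribosomal protein genes as a percent of all TPM (vertical axis) in each of the 72 libraries, by strain and by minutes after estradiol; points are libraries and bars are means of 3. Every strain is lowest at 20 min (27.2% to 29.8%), and no 20 min library reaches the lowest 0 min library (32.3%).

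Most members were highly expressed, and a few were close to the floor of detection. In the YOX1 table, 109 of the 132 genes had a mean of at least 1000 TPM, 16 lay between 100 and 1000 TPM and 7 were below 100 TPM, with a median of 2091 TPM. The highest were RPS15 (7530 TPM), RPS20 (7322 TPM), RPL41A (6465 TPM), RPS14A (5806 TPM) and RPS31 (5689 TPM), of which RPS15, RPS20 and RPS14A encode small subunit proteins and RPS31 a ubiquitin fusion. The level of RPL41A is less certain, because its copies are hard to separate. The lowest were RPL39 (5.48 TPM), RPL43A (5.61 TPM), RPL22A (9.43 TPM), RPL33A (10.5 TPM) and RPL36B (10.7 TPM). In the YHP1 table the counts were 112, 13 and 7, and the median was 2164 TPM. RPL41A (7963 TPM), RPS15 (6876 TPM), RPS20 (6629 TPM), RPS31 (6013 TPM) and RPS30A (5378 TPM) led that table, and the lowest were RPL43A (8.71 TPM), RPL33A (14.5 TPM), RPL22A (14.9 TPM), RPL39 (16.0 TPM) and RPL36B (30.2 TPM). The same 7 genes, these 5 with RPL15B and RPL28, were under 100 TPM in both tables, and the next member was at 278 TPM in the first and 215 TPM in the second.

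For 5 of those low genes an annotated reading frame lies on the opposite strand of the same locus. The higher members were not searched for such overlap. Its mean in the YOX1 table was 99.0 TPM at RPL39 (BUD19), 17.4 TPM at RPL22A (BUD28), 42.6 TPM at RPL43A (OPI11), 247 TPM at RPL33A (YPL142C) and 80.4 TPM at RPL28 (YGL102C). No source read for this work says whether the counting used strand. The levels and changes of RPL39, RPL22A, RPL43A, RPL33A and RPL28 are therefore uncertain, and the part of the overlap in them was not tested. Replicates agreed well for most other members. The SD between replicates on the log2 scale had a median over members of 0.107 for the YOX1-type strains and 0.0748 for the YHP1-type strains. It was above 0.2 in 9 and 2 members, and highest for RPL29 (0.413), a short gene of 180 coding bases.

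Estradiol time courses of the ctrl_ strains give the background response that the study subtracts from its inductions. At 20 min most ribosomal protein genes fell in all 4 ctrl_ strains. Changes are given as differences of log2(TPM + 1), which understate the changes of low genes, with adjusted p from limma over all genes tested. The median member changed by −0.23 in ctrl_YOX1, −0.26 in ctrl_yox1_9A, −0.35 in ctrl_YHP1 and −0.35 in ctrl_yhp1_13A, where the median of all genes was 0.03, −0.03, −0.04 and −0.03. At an adjusted p under 0.05, 83 members fell in ctrl_YOX1, beside 17.1% of all genes. In ctrl_yox1_9A 83 members fell (19.6% of all genes), in ctrl_YHP1 108 (24.4%) and in ctrl_yhp1_13A 108 (22.5%). No member rose in the first pair of strains (19.9% and 18.4% of all genes did), and 4 rose in each of the other two (18.6% and 18.3%). The member counts and the shares of all genes depend on the scaling. With libraries shifted to a common median the lower members numbered 68, 59, 75 and 80, in the same order of strains. Rescaled on the genes other than ribosomal protein genes they numbered 111, 111, 119 and 118. Of all genes in ctrl_YHP1, 1520 were lower and 1158 higher in the main fit. These became 1227 and 1784 with the common median and 2466 and 772 with that rescaling. Of the 132 members, 69 fell in all 4 ctrl_ strains and 18 in none. The shares of all genes with these patterns were not counted. Leaving out the ctrl_YOX1 20 min replicate 3 lowered the ctrl_YOX1 count to 51, and a fit on only the 2 groups compared gave 47.

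The individual changes were small against the size limit that the study used, a log2 difference above 0.58. No member passed it in ctrl_YOX1 (7.64% of all genes fell by that much) or ctrl_yox1_9A (8.9%). In ctrl_YHP1 RPL11B, RPL34A, RPL34B, RPL35B, RPL36A and RPS26B passed it (11.6% of all genes), and in ctrl_yhp1_13A RPL11B, RPL35B, RPL36A, RPL36B, RPS26B and RPS7B (10.4%). All are lower by adjusted p in both of these strains. Both 6-gene sets are a small share of the 132 members, below the share of all genes that fell by that much.

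RPL11B encodes a large subunit protein that binds the 5S ribosomal RNA. It lies on the minus strand of chromosome VII (chrVII:648383-648907, build R64) and has no intron. Its levels in ctrl_YHP1 were 1236, 1024 and 1062 TPM at 0 min, 697, 699 and 708 TPM at 20 min and 758, 779 and 762 TPM at 60 min. In ctrl_YOX1 they were 747, 706 and 884 TPM, then 534, 606 and 570 TPM, then 554, 711 and 782 TPM. The 0 and 20 min libraries did not overlap in either strain, and at 60 min they were still lower than at 0 min in ctrl_YHP1 but overlapped in ctrl_YOX1. RPL11B fell by 0.45 (SE 0.11, adjusted p = 0.00244), 0.55 (adjusted p = 0.000255), 0.65 (adjusted p = 3.49e-09) and 0.69 (adjusted p = 1.55e-09) on the log2 scale at 20 min in ctrl_YOX1, ctrl_yox1_9A, ctrl_YHP1 and ctrl_yhp1_13A. Its copies share 53.29% of their 100-base stretches, so the split between RPL11A and RPL11B is uncertain.

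RPS26B, a small subunit protein gene near the mRNA exit channel, fell more in the YHP1 table than in the YOX1 table. Its levels in ctrl_YHP1 were 4054, 3486 and 3757 TPM at 0 min and 2288, 2221 and 2199 TPM at 20 min. In ctrl_YOX1 they were 3596, 2957 and 3965 TPM at 0 min and 2671, 2662 and 3031 TPM at 20 min. The groups did not overlap in ctrl_YHP1 and overlapped in ctrl_YOX1. The log2 differences of RPS26B were −0.32 (SE 0.12), −0.42 (SE 0.12), −0.75 (SE 0.06) and −0.66 (SE 0.06), with adjusted p of 0.0409, 0.00772, 1.66e-11 and 2.14e-10. The RPS26B call in ctrl_yox1_9A was lost without 20 min replicate 2 (adjusted p = 0.0574). The tables were made separately, and this difference between them was not tested.

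RPL35B, a large subunit protein gene, changed alike in all 4 ctrl_ strains, by −0.55, −0.51, −0.66 and −0.61, each past the test. RPL36A gave −0.50, −0.57, −0.64 and −0.63, and RPL27B −0.39, −0.41, −0.55 and −0.55, also each past the test. RPL34A fell in 3 ctrl_ strains, by 0.43, 0.63 and 0.53, and its value in ctrl_YOX1 was −0.31 (adjusted p = 0.0611, or 0.0298 with the replicate number as a block). The RPL34A call in ctrl_yox1_9A was lost without 0 min replicate 1 (adjusted p = 0.0649) or 20 min replicate 2 (adjusted p = 0.0518).

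**Figure D2:**
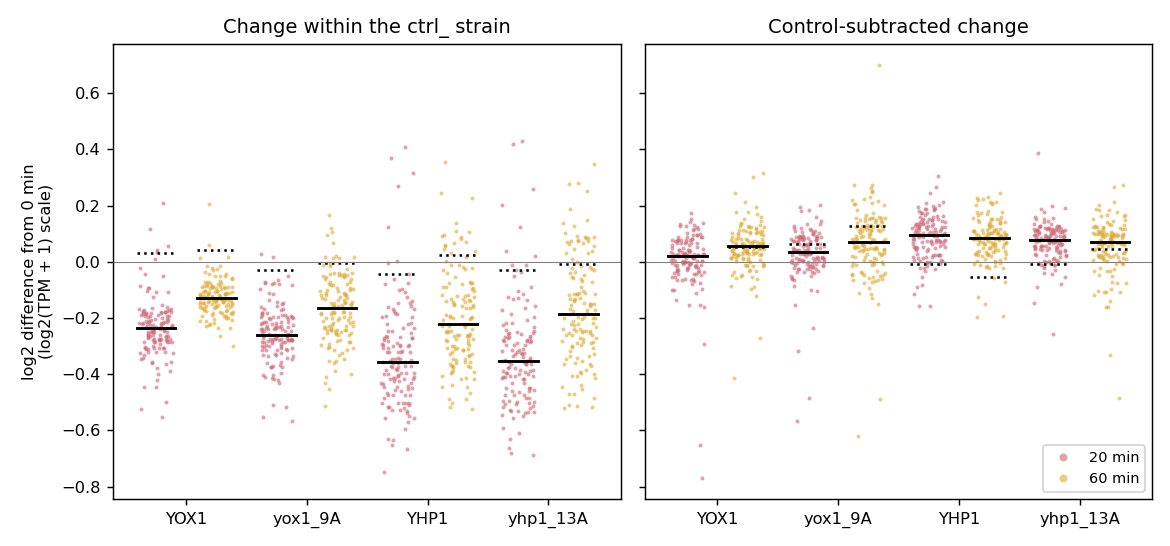
Log2 change from 0 min of each of the 132 ribosomal protein genes in the ctrl_ strains (left) and control-subtracted change of the Z3EVp_ strains (right), red at 20 min and yellow at 60 min; solid lines are the members' medians and dotted lines the medians of all genes. The members sit below the median of all genes in the ctrl_ strains (medians −0.23 to −0.35 at 20 min) and near 0 after subtraction (0.02 to 0.10).

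Across members, the 20 min changes of the ctrl_ strains were correlated, more closely within the YHP1 table than elsewhere. Pearson's r over the 132 members was 0.71 (Spearman's rho 0.68) between the strains of the YOX1 table, 0.93 (0.93) between those of the YHP1 table, and 0.58 to 0.75 (0.49 to 0.78) between tables, with genes not independent of each other and strains of a table sharing 1 processing. Averaged over the 4 ctrl_ strains, the median change was −0.31 in the 88 members with a coding intron and −0.29 in the 44 without. It was −0.30 in both subunits, and −0.22 in the 18 members with no second copy. These medians differ by less than the spread between members and were not tested.

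Members with a role in regulation or assembly are given by role. The 3 ubiquitin fusion genes, RPL40A, RPL40B and RPS31, whose products are cleaved into ubiquitin and a ribosomal protein, fell in all 4 ctrl_ strains at 20 min. RPS31 fell by 0.28, 0.29, 0.44 and 0.47, RPL40B by 0.19, 0.23, 0.37 and 0.34, and RPL40A by 0.26, 0.25, 0.17 and 0.17, the last at an adjusted p of 0.0496. The genes of the 5S particle, RPL5, RPL11A and RPL11B, also fell in all 4, RPL5 by 0.22 to 0.25 and RPL11A by 0.18 to 0.42. The 6 genes whose products limit their own transcripts split. RPS9B and RPS14B fell in all 4 strains, RPS14B by 0.52, 0.52, 0.27 and 0.32, while RPL30 (0.00 to −0.21) and RPS28B (0.02 to −0.22) passed the test in none. RPS9A and RPL22B rose in the YHP1 table only by the test, with log2 differences of 0.12 and 0.04 in ctrl_YOX1 that did not pass, and that contrast between tables was not tested.

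The 4 members that rose at 20 min in ctrl_YHP1 and in ctrl_yhp1_13A were RPL9B, RPL22B, RPS9A and RPL28. RPL9B, a large subunit protein gene, was at 595, 628 and 588 TPM at 0 min, 708, 774 and 771 TPM at 20 min and 759, 733 and 824 TPM at 60 min in ctrl_YHP1. Every library after estradiol lay above every library before it. The log2 difference of RPL9B at 20 min was 0.31 (SE 0.05, adjusted p = 2.12e-05) in ctrl_YHP1 and 0.26 (SE 0.05, adjusted p = 0.000242) in ctrl_yhp1_13A, and −0.02 and −0.05 in the YOX1 table. With every library rescaled on the genes other than ribosomal protein genes, the ctrl_yhp1_13A value of RPL9B was 0.11 (adjusted p = 0.0999), while its values at 60 min passed in both strains.

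RPL22B was at 296, 279 and 313 TPM at 0 min in ctrl_YHP1, at 375, 361 and 415 TPM at 20 min and at 273, 287 and 318 TPM at 60 min. The 20 min libraries stood apart from both other times. RPL22B rose by 0.37 (SE 0.07, adjusted p = 7.84e-05) and 0.42 (SE 0.07, adjusted p = 1.75e-05) in the 2 strains, also under both rescalings, and fell from 20 to 60 min by 0.39 and 0.35. RPS9A was at 296, 236 and 288 TPM at 0 min, 386, 289 and 424 TPM at 20 min and 263, 249 and 277 TPM at 60 min, so its 0 and 20 min libraries overlapped by 1 library. RPS9A changed by 0.41 (SE 0.14, adjusted p = 0.0228) and 0.43 (SE 0.14, adjusted p = 0.0172). When ribosomal protein genes were left out of the scaling, RPL22B was the 1 member higher in ctrl_yhp1_13A, so the RPS9A call was lost there. Without ctrl_YHP1 0 min replicate 2, 20 min replicate 1 or 20 min replicate 3 the adjusted p of RPS9A became 0.119, 0.0842 and 0.14, and without ctrl_yhp1_13A 0 min replicate 2, 20 min replicate 1 or 20 min replicate 3 it became 0.141, 0.147 and 0.0501. RPL28 (51.2, 47.6 and 55.9 TPM, then 54.6, 70.1 and 62.9 TPM) overlapped between times, and its adjusted p of 0.00829 and 0.0482 became 0.229 and 0.607 when ribosomal protein genes were left out of the scaling. Its call in ctrl_YHP1 was also lost without 0 min replicate 2 (adjusted p = 0.0522) or 20 min replicate 2 (adjusted p = 0.0869), and that in ctrl_yhp1_13A without any of 5 of its 6 libraries, all but 20 min replicate 2 (adjusted p up to 0.164).

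**Figure D3:**
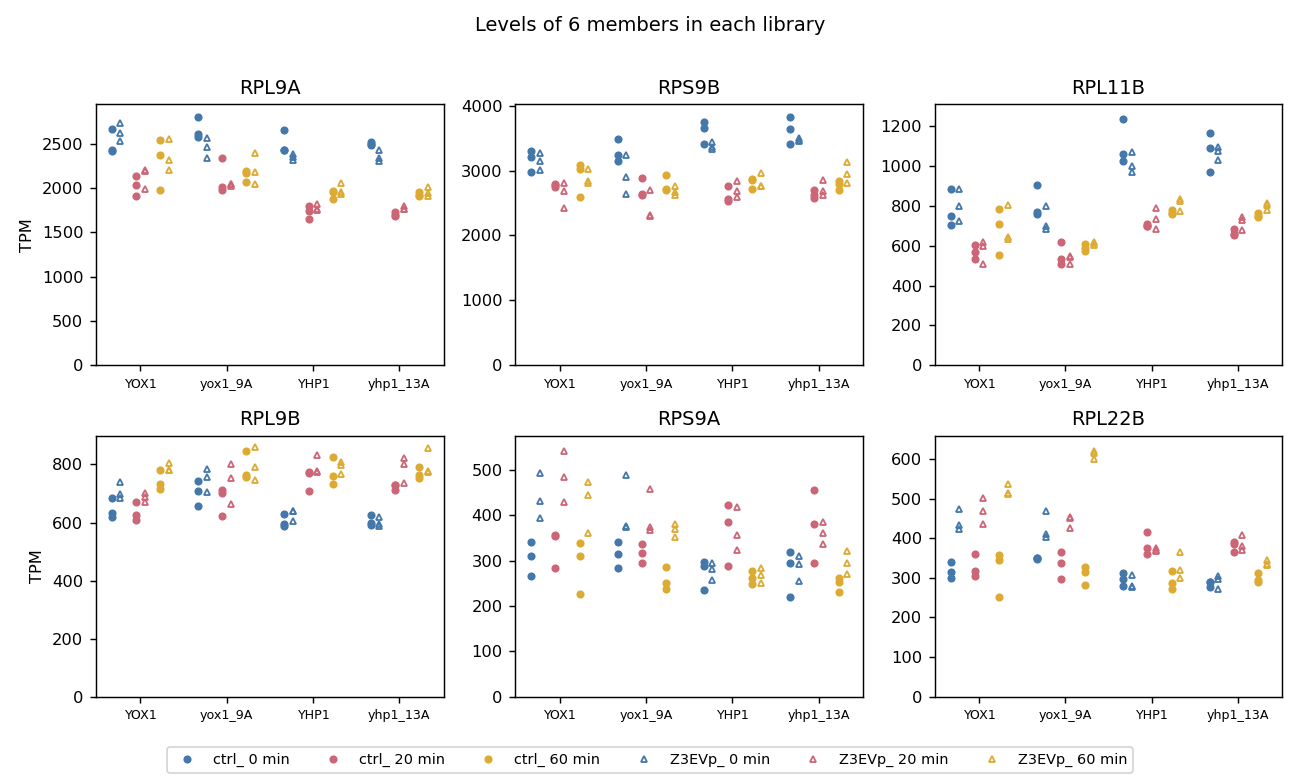
TPM of RPL9A, RPS9B, RPL11B, RPL9B, RPS9A and RPL22B (1 panel each, linear axis) in every library by strain; filled circles are ctrl_ and open triangles Z3EVp_ strains, and colours mark the minutes after estradiol. RPL9A, RPS9B and RPL11B are lower at 20 min, while RPL22B stands highest at 60 min in Z3EVp_yox1_9A (600 to 621 TPM).

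At 60 min the fall was smaller. Median changes were −0.13, −0.16, −0.22 and −0.18 in ctrl_YOX1, ctrl_yox1_9A, ctrl_YHP1 and ctrl_yhp1_13A. In that order 6, 29, 75 and 72 members were lower than at 0 min, beside 4.16%, 5.58%, 13.4% and 16.6% of all genes. The first count is near the share of all genes. With libraries shifted to a common median the counts in ctrl_YOX1 and ctrl_yhp1_13A became 14 and 47, and with rescaling on the genes other than ribosomal protein genes those in ctrl_YOX1 and ctrl_yox1_9A became 23 and 62. In fits on only the groups compared the counts in ctrl_YOX1, ctrl_yox1_9A and ctrl_yhp1_13A were 0, 11 and 39. Without a variance trend the first count was 3. The first count became 2 without ctrl_YOX1 0 min replicate 3 or 60 min replicate 3. The second became 8 without ctrl_yox1_9A 0 min replicate 1 and 16 without 60 min replicate 1 or replicate 2. RPL27A, a large subunit protein gene, and RPL40B were the members lower in all 4 strains. RPL40B was at 2848, 3202 and 2909 TPM at 0 min in ctrl_YHP1, 2270, 2315 and 2337 TPM at 20 min and 2310, 2278 and 2393 TPM at 60 min, with no return between 20 and 60 min (log2 difference 0.01). RPL40B fell by 0.17 (adjusted p = 0.0482), 0.24, 0.36 and 0.29 at 60 min, and was the 1 member lower at 60 min in all 8 strains. Its call in ctrl_YOX1 was lost without 0 min replicate 2 (adjusted p = 0.145), 0 min replicate 3 (0.147), 60 min replicate 1 (0.183) or 60 min replicate 3 (0.0931). The call of RPL27A there (log2 difference −0.18, adjusted p = 0.0317) was lost without 0 min replicate 1 (0.095), 0 min replicate 3 (0.102), 60 min replicate 1 (0.133) or 60 min replicate 3 (0.064), and that of RPL40B in Z3EVp_YOX1 without any of its 6 libraries.

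Members that were higher than at 0 min at 60 min were few. RPL9B rose in ctrl_YOX1 (0.21, adjusted p = 0.0422), ctrl_YHP1 (0.35, adjusted p = 1.05e-05) and ctrl_yhp1_13A (0.35, adjusted p = 1.56e-05), where 12.7%, 19.1% and 15.5% of all genes did. Its value in ctrl_yox1_9A was 0.17 (adjusted p = 0.103, or 0.0195 with the replicate block), where 11.6% of all genes rose and no member. The ctrl_YOX1 call of RPL9B was lost without any of 5 of the 6 libraries, all but 0 min replicate 2 (adjusted p up to 0.175). RPS27B, a small subunit protein gene, rose in ctrl_yhp1_13A (0.28, adjusted p = 0.0327), a call lost without 0 min replicate 1, 0 min replicate 3, 60 min replicate 1 or 60 min replicate 2 (adjusted p up to 0.247). With the replicate number as a block the members higher at 60 min numbered 4 in ctrl_YHP1 in place of 1, and 7 in ctrl_yhp1_13A in place of 2. RPS28B, whose product limits its own mRNA, was among those added in both, with log2 differences of 0.24 (adjusted p = 0.0711, or 0.00877 with the block) and 0.25 (adjusted p = 0.0658, or 0.00729 with the block). In Z3EVp_YHP1 and Z3EVp_yhp1_13A the higher members numbered 7 and 11 with the block.

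Between 20 and 60 min, 11, 14, 56 and 71 members rose in ctrl_YOX1, ctrl_yox1_9A, ctrl_YHP1 and ctrl_yhp1_13A, beside 13.1%, 15.1%, 20.2% and 16.1% of all genes. The counts of 11 and 14 lie below the share of all genes. RPS14B, which controls the splicing of its own transcript, was at 739, 781 and 780 TPM at 0 min, 528, 516 and 555 TPM at 20 min and 673, 627 and 689 TPM at 60 min in ctrl_YOX1. All its 60 min libraries lay above all its 20 min libraries, and RPS14B rose over that interval in every ctrl_ strain, by 0.31 to 0.40. These counts depended on the scaling and on single libraries. With libraries shifted to a common median they were 3, 2, 5 and 24, and the lower members numbered 0, 2, 3 and 4 in place of 0, 0, 2 and 4. They were 7, 7 and 6 without ctrl_YOX1 20 min replicate 1, 20 min replicate 3 and 60 min replicate 2. In ctrl_yox1_9A they were 5, 9, 9 and 8 without 20 min replicate 1, 20 min replicate 2, 60 min replicate 1 and 60 min replicate 2. In ctrl_YHP1 they were 28, 32 and 37 without 20 min replicate 3, 60 min replicate 2 and 60 min replicate 3, and in ctrl_yhp1_13A 47 without 20 min replicate 1. The members that fell from 20 to 60 min were RPL22B and RPS9A in ctrl_YHP1 (8.7% of all genes) and RPL22B, RPS9A, RPL39 and RPL7B in ctrl_yhp1_13A (10.7% of all genes), with none in ctrl_YOX1 (7.72%) or ctrl_yox1_9A (9.21%).

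Most members also fell in the Z3EVp_ strains at 20 min without subtraction. In the main fit fewer passed than in the matching ctrl_ strains, a difference that was not tested. With libraries shifted to a common median that order turned for yox1_9A, with 61 in Z3EVp_yox1_9A and 59 in ctrl_yox1_9A. At 20 min 68, 77, 92 and 97 members were lower in Z3EVp_YOX1, Z3EVp_yox1_9A, Z3EVp_YHP1 and Z3EVp_yhp1_13A, beside 17.7%, 18.7%, 22.4% and 22.9% of all genes. Without the Z3EVp_YOX1 20 min replicate 2 the first count became 34. With libraries shifted to a common median the last pair became 48 and 46, with rescaling on the other genes the first became 105, and in a fit on only the groups compared the second became 36. No member rose in the first pair, where 21.9% and 22.5% of all genes did, and 3 rose in each of the others (16.1% and 16.7%), RPL9B and RPL22B in both, RPS9A in Z3EVp_YHP1 and RPL28 in Z3EVp_yhp1_13A. At 60 min 4, 13, 52 and 53 were lower, beside 7.85%, 10.6%, 15.2% and 11% of all genes, so the first pair lies at or below the share of all genes, and 0, 1, 2 and 2 were higher, beside 22.1%, 27.3%, 14.1% and 17%. The 4 lower in Z3EVp_YOX1 were RPL24B, RPL28, RPL40B and RPS14B, and those higher were RPL22B in the last 3 strains and RPL9B in the last 2. The 60 min counts of lower members were 25, 43, 26 and 35 with libraries shifted to a common median. The count of 4 became 0 in a fit on only the groups compared and 2 without a variance trend. It also became 2 without Z3EVp_YOX1 0 min replicate 1 and 1 without 60 min replicate 2, and the count of 13 became 7 without Z3EVp_yox1_9A 0 min replicate 1 or replicate 2 and 8 without 60 min replicate 3. Over all 8 strains, 47 members fell at 20 min in every strain and 119 had values below 0 in every strain. How many of all genes did so was not counted.

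Genes around the ribosomal protein regulon moved to different extents in the ctrl_ strains. Of 15 ribosome biogenesis genes, which make and process ribosomal RNA, 15, 15, 14 and 14 fell at 20 min, with median changes of −1.12, −1.33, −1.70 and −1.57, and 7, 7, 8 and 8 were lower at 60 min. All 7 measured dedicated chaperones of ribosomal proteins fell at 20 min, with medians of −1.0 to −1.35. These counts stand beside 17.1%, 19.6%, 24.4% and 22.5% of all genes lower at 20 min and 19.9%, 18.4%, 18.6% and 18.3% higher. Of 10 elongation factor genes 3, 2, 5 and 5 fell (medians −0.12, −0.18, −0.19 and −0.21), and of the 6 genes for the ribosomal stalk and for Asc1 2, 1, 2 and 3 fell (medians −0.24, −0.14, −0.15 and −0.17), some of them counts near those shares. Of 43 mitochondrial ribosomal protein genes, which serve a separate ribosome, 5, 4, 8 and 5 rose at 20 min, at or below the share of all genes, and 0, 0, 1 and 0 fell, with medians of 0.15, 0.12, 0.16 and 0.17. At 60 min 26, 16, 15 and 11 of them rose, beside 12.7%, 11.6%, 19.1% and 15.5% of all genes, with medians of 0.41, 0.34, 0.25 and 0.22. Of 16 regulators of ribosomal protein genes, 6, 7, 5 and 5 fell and 3, 3, 1 and 1 rose at 20 min, with medians of −0.10, −0.15, −0.01 and −0.02. RAP1, whose product binds most of these promoters, fell by 0.70, 0.86, 0.91 and 0.84, and IFH1, a coactivator, by 0.80, 0.84, 0.53 and 0.55.

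Almost no ribosomal protein gene passed the test for a change beyond its control after induction of Yox1, Yox1-9A, Yhp1 or Yhp1-13A. The subtracted change is the change of a Z3EVp_ strain from 0 min minus that of its ctrl_ strain, in which HO was induced instead. Its median over members at 20 and 60 min was 0.02 and 0.05 for Yox1, 0.03 and 0.07 for Yox1-9A, 0.10 and 0.08 for Yhp1, and 0.08 and 0.07 for Yhp1-13A, and the median of all genes was 0.02 and 0.05, 0.07 and 0.13, −0.01 and −0.05, and −0.01 and 0.05. The Yox1-9A median at 60 min turned to −0.029 with libraries shifted to a common median. The Yox1 median at 20 min turned below 0 without Z3EVp_YOX1 0 min replicate 3 (−0.0042), Z3EVp_YOX1 20 min replicate 1 (−0.014) or ctrl_YOX1 0 min replicate 2 (−0.0061). Subtracted values were above 0 in 80 and 109 of the 132 members with Yox1 at 20 and 60 min (60.6% and 82.6%, beside 55.4% and 63.7% of all genes). With Yox1-9A they were above 0 in 95 and 101 members (72% and 76.5%, beside 69.4% and 72.8%). With Yhp1 it was 117 members at both times (88.6%, beside 47% and 35%), and with Yhp1-13A 116 and 108 (87.9% and 81.8%, beside 46.5% and 63.6%). In 7 of the 8 comparisons 0 of 132 members passed limma's adjusted p, and 1 did for Yox1-9A at 60 min. Background shares of all genes lower and higher at 20 min were 2.65% and 0.24% for Yox1, 2.41% and 0.368% for Yox1-9A, 0.0803% and 0.0161% for Yhp1, and 0.385% and 0.0161% for Yhp1-13A. At 60 min they were 3.09% and 0.624%, 4.08% and 2.59%, 0.0642% and 0.0161%, and 0.498% and 0.0161%. With Yhp1 and Yhp1-13A so few of all genes passed that 0 members lies near their share. At an unadjusted p under 0.05 the members numbered 2 and 0 for Yox1 at 20 and 60 min and 1 and 3 for Yox1-9A. They numbered 18 and 14 for Yhp1 and 3 and 6 for Yhp1-13A. The shares of all genes under that unadjusted limit were not counted, so these numbers cannot be read as many or few.

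The intervals say how large a change these data leave room for. The 95% interval of the subtracted change lay within ±0.58 for 124 and 121 of the 132 members with Yox1 at 20 and 60 min and for 123 and 118 with Yox1-9A. It did so for 131 and 129 with Yhp1 and for 130 and 127 with Yhp1-13A. The lowest subtracted values belonged mostly to the low, overlapped genes. RPL22A gave −0.65 (95% interval −1.24 to −0.06, adjusted p = 0.479) and RPL39 −0.77 (−1.44 to −0.10, adjusted p = 0.439) for Yox1 at 20 min, and RPL22A gave −0.48 (−0.84 to −0.13, adjusted p = 0.725) for Yhp1-13A at 60 min. RPL35B was highest for Yhp1 at 20 min, at 0.31 (0.08 to 0.53, adjusted p = 0.99993). For the autoregulated genes RPL30 and RPS14B, the subtracted values for Yox1-9A at 60 min were −0.05 and −0.13 and did not pass.

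RPL22B, whose protein limits the splicing of its transcript, rose above its control with Yox1-9A at 60 min. In Z3EVp_yox1_9A its levels were 469, 412 and 403 TPM at 0 min, 454, 427 and 452 TPM at 20 min and 615, 621 and 600 TPM at 60 min. In ctrl_yox1_9A they were 349, 348 and 350 TPM, then 298, 337 and 365 TPM, then 282, 315 and 328 TPM. The 3 induced libraries at 60 min lay above all the others of both strains, and the control libraries at 60 min lay below those at 0 min. The subtracted log2 change of RPL22B was 0.70 (SE 0.14, 95% interval 0.42 to 0.98, adjusted p = 0.000657). It remained between 0.64 and 0.77 when any 1 library was left out. With Yox1 the subtracted value of RPL22B at 60 min was 0.25 (SE 0.14, adjusted p = 0.585), and the difference between the 2 alleles was 0.46 (SE 0.19, adjusted p = 0.99988), which did not pass. With Yhp1 it was 0.21 and with Yhp1-13A 0.14, neither past the test.

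The other copy, RPL22A, whose low level is uncertain as given above, fell in the same strain. Its levels in Z3EVp_yox1_9A were 15.8, 10.2 and 9.45 TPM at 0 min, 9.04, 4.69 and 4.84 TPM at 20 min and 4.12, 5.50 and 6.21 TPM at 60 min. In ctrl_yox1_9A they were 13.5, 9.25 and 11.5 TPM at 0 min and 8.23, 7.89 and 9.15 TPM at 60 min. The 0 and 60 min libraries did not overlap in either strain. RPL22A fell by 1.01 (SE 0.20, adjusted p = 0.000214) in Z3EVp_yox1_9A. In ctrl_yox1_9A the value of RPL22A was −0.39 (adjusted p = 0.201), and its subtracted value was −0.62 (95% interval −1.21 to −0.03, adjusted p = 0.248), which did not pass.

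The strains already differed in RPL22B before estradiol. At 0 min its levels were 475, 434 and 425 TPM in Z3EVp_YOX1 and 300, 315 and 339 TPM in ctrl_YOX1, without overlap. The log2 difference of RPL22B was 0.48 (SE 0.10, 95% interval 0.28 to 0.68, adjusted p = 0.0121), the 1 member that passed in this comparison, where 0.272% of all genes were higher and 0.128% lower. The call was lost without Z3EVp_YOX1 0 min replicate 1 (adjusted p = 0.0979), ctrl_YOX1 0 min replicate 1 (0.101) or ctrl_YOX1 0 min replicate 2 (0.0601), and in a fit on these 2 groups alone (0.226). Between Z3EVp_yox1_9A and ctrl_yox1_9A the RPL22B difference at 0 min was 0.29 (adjusted p = 0.26). At 0 min no member passed in the other 3 comparisons of a Z3EVp_ with its ctrl_ strain, where 0.32%, 0.112% and 0.144% of all genes were higher and 0.272%, 0.257% and 0.241% lower, nor between the phosphosite and wild-type alleles in the ctrl_ strains, where 0% of all genes were called.

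Phosphosite and wild-type alleles did not differ by the test in any ribosomal protein gene. The induced transcripts were not equal for the Yox1 pair. Mean YOX1 at 20 and 60 min was 604 and 621 TPM in Z3EVp_yox1_9A, against 1182 and 1046 TPM in Z3EVp_YOX1. YHP1 was at 846 and 820 TPM in Z3EVp_yhp1_13A, against 851 and 780 TPM in Z3EVp_YHP1. For the proteins, the paper reports higher amounts of the phosphosite forms. The difference between the subtracted changes of Yox1-9A and Yox1 and between those of Yhp1-13A and Yhp1 passed for 0 of 132 members at both times, where at most 0.224% of all genes were called lower and 0% higher. The 95% interval of this difference lay within ±0.58 for 111 and 100 members in the Yox1 pair and for 120 and 118 in the Yhp1 pair at 20 and 60 min. The remaining members could differ by more than that at the precision of these data.

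Within the 57 paralog pairs the copies kept a fixed order of levels almost everywhere. The same copy was higher on average in both tables in 55 pairs, and in 45 pairs the same copy was higher in all 72 libraries. These counts include RPL41 and the 6 pairs that share many stretches, whose values per copy are less certain. The A copy was higher in 32 pairs and the B copy in 25 in the YOX1 table. In 39 pairs there the copies were within 1 log2 unit, and the median absolute log2 ratio of A over B was 0.63, beside 40 pairs and 0.60 in the YHP1 table. The largest log2 ratios of A over B were in RPL43 (−7.51 and −7.17, YOX1 table first), RPL33 (−7.25 and −6.69), RPL15 (6.63 and 6.40), RPL36 (6.22 and 4.86), RPL22 (−5.45 and −4.47) and RPL7 (3.34 and 3.71). The low copies of RPL43, RPL33 and RPL22 are among the genes found overlapped on the opposite strand, so those ratios are uncertain. Without these 3 pairs, a choice made after seeing the data, RPL15, RPL36, RPL7, RPS9 (−3.01 and −3.31), RPS14 (3.07 and 3.08) and RPS27 (−2.50 and −2.73) had the largest ratios. The A copy was then higher in 32 and the B copy in 22 of 54 pairs, and the same copy was higher in all 72 libraries in 42. The copies were near equal in RPS23 (−0.02 and 0.03), RPS18 (0.03 and 0.06) and RPL13 (−0.05 and −0.15).

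**Figure D4:**
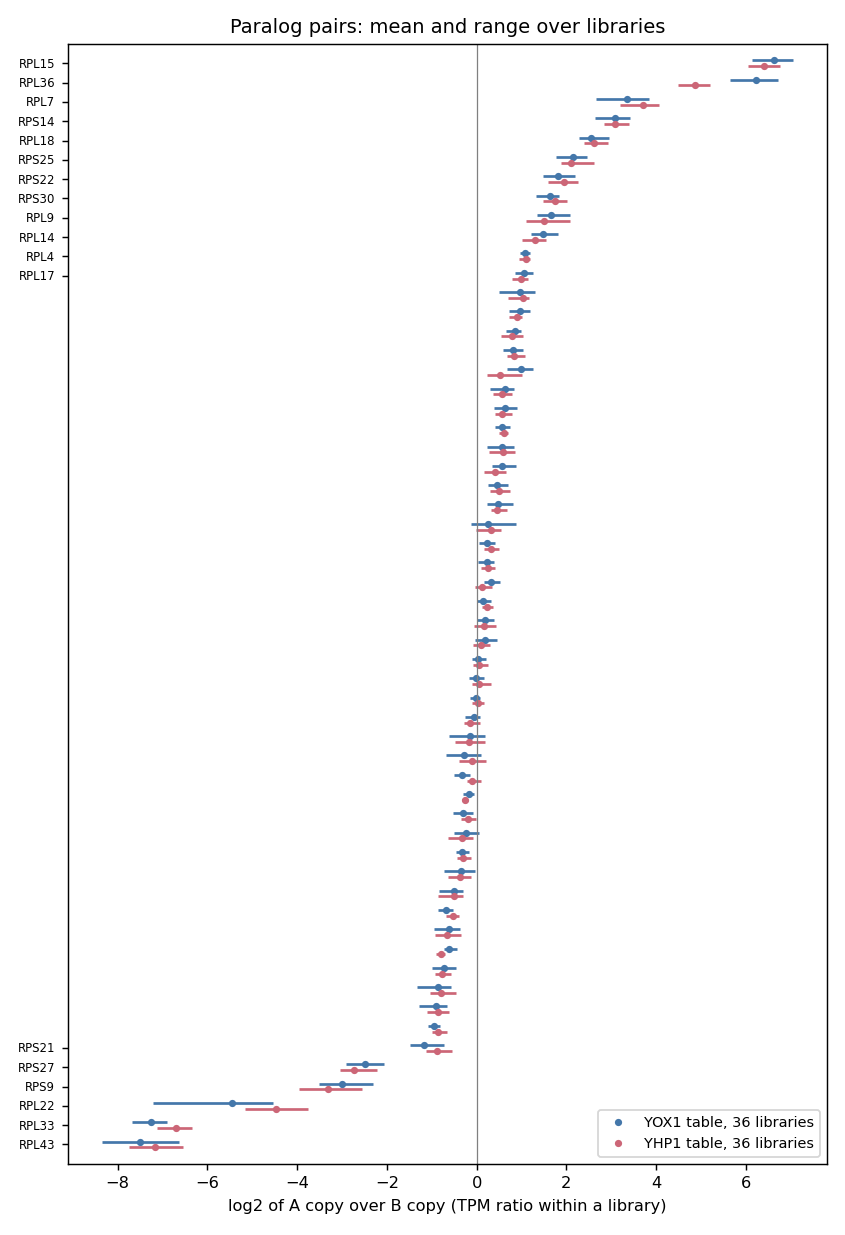
Log2 ratio of A over B copy for the 57 pairs in each table; dots are means over 36 libraries and lines run from the lowest to the highest library, with names at pairs over 1 log2 unit from equality. RPL43, RPL33 and RPL22 lean to the B copy by over 4 log2 units and RPL15 and RPL36 to the A copy, while most pairs lie within 1 log2 unit of equality.

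The ratio of the copies moved little in most pairs after estradiol, although the test often called 1 copy only. Both copies fell at 20 min in all 4 ctrl_ strains in 18 pairs, 1 copy in 25 and neither in 14. The log2 ratio moved by a median of 0.10 in size at 20 min, averaged over the 4 ctrl_ strains, and by 0.07 at 60 min. It moved by over 0.3 at 20 min in 3 pairs, RPS9 (0.59, from 0.29 to 0.90 among strains), RPL9 (−0.56, from −0.85 to −0.29) and RPS22 (−0.31, from −0.46 to −0.17). The RPS9 ratio moved up and the RPL9 ratio down in all 8 strains.

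In RPL9 the major copy fell while the minor copy did not. RPL9A was at 2428, 2660 and 2428 TPM at 0 min in ctrl_YHP1, 1799, 1742 and 1656 TPM at 20 min and 1878, 1951 and 1973 TPM at 60 min, opposite to the RPL9B values above. In ctrl_YOX1 RPL9A was at 2417, 2430 and 2666 TPM, then 1907, 2134 and 2036 TPM, and RPL9B at 618, 685 and 631 TPM, then 610, 670 and 626 TPM. RPL9A fell at 20 min in all 4 strains (log2 differences −0.31, −0.34, −0.53 and −0.56) and RPL9B in none. The log2 ratio of RPL9A over RPL9B was still moved at 60 min, by −0.57 on average and by −0.73 to −0.34 among strains, the largest move at that time, and RPL43 (−0.34), RPL6 (−0.28), RPL15 (−0.28) and RPS27 (−0.27) moved less. Neither RPL9 copy has a coding intron.

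RPS9 moved the other way, with the major copy named B. RPS9B was at 3746, 3663 and 3416 TPM at 0 min in ctrl_YHP1, 2758, 2560 and 2523 TPM at 20 min and 2868, 2720 and 2852 TPM at 60 min. All libraries after estradiol lay below all those before it. RPS9B fell at 20 min by 0.19 (adjusted p = 0.0484), 0.28, 0.47 and 0.46, while RPS9A fell in none. At 60 min the log2 ratio of RPS9A over RPS9B had returned to within 0.31 of its start in every ctrl_ strain.

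**Figure D5:**
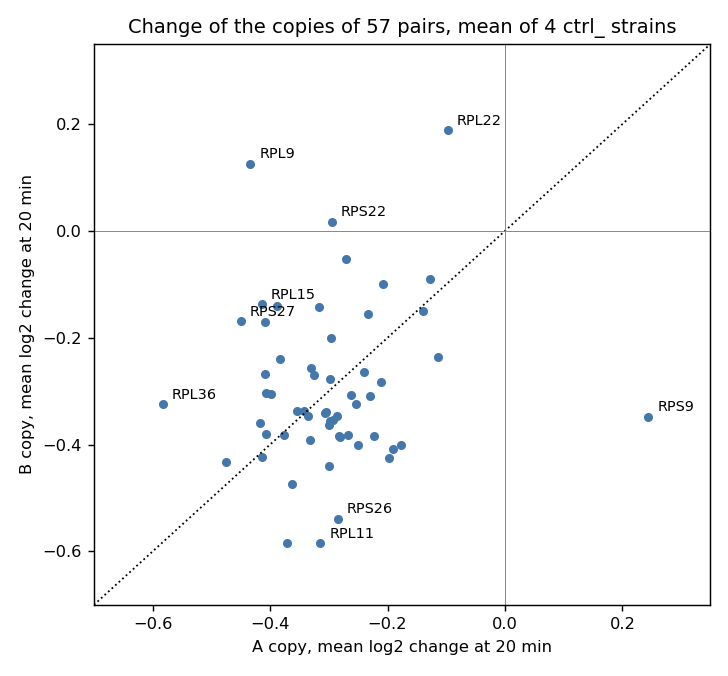
Mean log2 change at 20 min over the 4 ctrl_ strains of the A copy (horizontal axis) against the B copy (vertical axis) for the 57 pairs; the dotted line marks equal change, and pairs that differ by over 0.25 are labelled. Most pairs lie near the line, with RPL9 and RPS9 farthest from it on opposite sides.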

How the data were processed

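The authors aligned paired-end reads with STAR 2.5.3a to build R64, counted exon fragments with featureCounts 1.5.2 and deposited TPM per gene and library. Their TPM keep no depth. The labels and the study's methods differ on how poly-A RNA was handled. All columns of both tables were mapped to the 72 libraries by name.

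Values were tested as log2(TPM + 1) with limma 3.58.1 in R 4.3.3, in 1 fit per table over 12 groups, with a variance trend, a level filter (mean TPM of 1 or above), and Benjamini-Hochberg adjustment over all genes of the table. Tests are two-sided. Replicate numbers come from the labels, which name no shared day or batch. Deviations from group means of same-numbered libraries correlated above 0.1 in every pair in 19 of 26 group comparisons and not in 7, with a range of −0.180 to 0.798, and blocked values are given for the former where they change a call that is named or move a count by over 1.5 times. The depositors call the 3 libraries of a group biological replicates. All 132 members matched the RefSeq annotation of R64, from which sequences and introns were read. Tables were not tested against each other. Members, gene lists and tests were chosen with earlier results of these data known. The named genes are the 5 highest and 5 lowest members by level, up to 10 members called in each direction per contrast (or the 3 highest and 3 lowest where none was called), the extreme and most moved pairs, and the autoregulated, ubiquitin fusion and 5S particle genes. RPS27B, RPL27A and RPS26B entered by that rule. Sequences were chosen to show members so named. Some pairs that the rule names are not reported here. The fit was tested on simulated data. Alternatives were the pseudocount, the level filter, 2 other scalings, no variance trend, only the groups compared, a replicate block and leaving out each library.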

Additional observations from a re-analysis of the deposited data

Results flagged for a closer look

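RPL22B with Yox1-9A at 60 min was flagged because the changes of the inducible and the control strain differed by a test of the difference itself, limma's interaction contrast (log2 0.70, adjusted p = 0.000657). Its level rose from 428 ± 35.6 TPM to 612 ± 10.6 TPM in Z3EVp_yox1_9A and went from 349 ± 1.35 TPM to 308 ± 23.8 TPM in ctrl_yox1_9A. The subtracted value thus holds a rise in 1 strain and a lower value in the other, whose own change did not pass (log2 difference −0.18, adjusted p = 0.205).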

How the results depend on the processing

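The falls at 20 min and the 0 passing members in 7 subtracted comparisons kept their direction and side under all alternatives run, but counts near the threshold moved, and the cause was not tested beyond each alternative's construction. With libraries shifted to a common median, which moved the median of all genes by up to 0.11 (Z3EVp_yhp1_13A at 20 min), the subtracted Yox1-9A median at 60 min turned from 0.07 to −0.029. Other member medians became −0.27 and −0.19 (ctrl_YOX1, 20 and 60 min), −0.25 (ctrl_YHP1, 20 min), −0.28 and −0.13 (ctrl_yhp1_13A), and subtracted 0.14 (Yhp1, 60 min), 0.11 and 0.031 (Yhp1-13A). Lower counts became 14 (ctrl_YOX1, 60 min), 25 (Z3EVp_YOX1, 60 min), 43 (Z3EVp_yox1_9A, 60 min), 48 and 26 (Z3EVp_YHP1, 20 and 60 min), 46 and 35 (Z3EVp_yhp1_13A) and 47 (ctrl_yhp1_13A, 60 min). Higher counts from 20 to 60 min became 3, 2, 5 and 24, and 2 (YOX1) and 1 (yox1_9A) members passed between strains at 0 min. Log2 changes of summed TPM became −0.28 and −0.19 (ctrl_YOX1, from −0.24 and −0.13), −0.23 (ctrl_YHP1 at 20 min, from −0.33) and −0.26 (ctrl_yhp1_13A at 20 min, from −0.33).

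Rescaled on the other genes, which moved the median of all genes by as much as −0.14 (ctrl_YHP1 at 20 min), member medians became −0.34 and −0.19 (ctrl_YOX1), −0.37 and −0.23 (ctrl_yox1_9A), −0.51 and −0.31 (ctrl_YHP1), −0.50 and −0.26 (ctrl_yhp1_13A), and subtracted 0.13 (Yhp1, 60 min), 0.11 and 0.10 (Yhp1-13A). Lower counts became 105 (Z3EVp_YOX1, 20 min), 23 (ctrl_YOX1, 60 min) and 62 (ctrl_yox1_9A, 60 min), and higher counts from 20 to 60 min 23 (ctrl_YOX1) and 85 (ctrl_YHP1). Summed TPM changed by −0.35 and −0.19, −0.35 and −0.21, −0.48 and −0.28, and −0.48 and −0.23. With only the groups compared, lower counts were 47 and 0 (ctrl_YOX1), 0 (Z3EVp_YOX1, 60 min), 36 (Z3EVp_yox1_9A, 20 min), 11 (ctrl_yox1_9A, 60 min) and 39 (ctrl_yhp1_13A, 60 min), higher counts from 20 to 60 min 5, 7, 37 and 39, 0 members passed at 0 min for YOX1 and 2 for the subtracted Yox1-9A change at 60 min. Without a variance trend 3 (ctrl_YOX1) and 2 (Z3EVp_YOX1) were lower at 60 min.

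Leaving out 1 library gave a ctrl_yhp1_13A median of −0.40 to −0.32 at 20 min and higher counts from 20 to 60 min of 6 to 15, 5 to 17, 28 to 59 and 47 to 67. Lower counts ran from 51 to 70 and 2 to 5 (ctrl_YOX1), 34 to 67 and 1 to 3 (Z3EVp_YOX1), 7 to 18 (Z3EVp_yox1_9A, 60 min) and 8 to 38 (ctrl_yox1_9A, 60 min), with 0 to 1 passing at 0 min for YOX1 and 1 to 2 for the subtracted Yox1-9A change at 60 min, 2 without Z3EVp_yox1_9A 0 min replicate 1. With a replicate block no member lost a call. Members lower in ctrl_YOX1 at 60 min became 14. Same-numbered libraries of that comparison correlated from −0.180 to 0.594, so not every pair was above 0.1. Members higher at 60 min became 4, 7, 7 and 11 in ctrl_YHP1, Z3EVp_YHP1, ctrl_yhp1_13A and Z3EVp_yhp1_13A, in place of 1, 2, 2 and 2, and 1 in Z3EVp_YOX1 and ctrl_yox1_9A in place of 0. Members higher at 20 min became 5 in Z3EVp_yhp1_13A in place of 3, and no other count moved by over 1.5 times. Mean ratios of the extreme and most moved pairs shifted by less than the replicate SD when 1 library was left out. The ratio is taken within a library and without a pseudocount. Scaling and fit settings therefore cannot change it, and they are no check on it.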
